A study of Mus musculus with 10 samples.

Results

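The genes described here are 50 mouse genes of DNA replication and mitosis, among the 49568 genes of an RNA-seq table. They were chosen by name from a list and not by their values, though with earlier results of these data known. The list holds 23 genes that act at or before S phase (the S-phase members) and 27 that act in G2 phase and mitosis (the G2/M members). The table covers 10 mouse pancreatic cancer cell lines, 1 library per line, grown in culture medium with serum. The 5 KPCAf/f lines are A1693, A1809, A1925, A2441 and A3992, and the 5 KPC lines are A1081, A1620, A1625, A2031 and A2032. Both names carry the letters KPC, in this field the usual name of a mouse model of pancreatic cancer with a pancreas-directed Cre, so the KPC lines are tumour lines and not normal cells. The labels do not spell out Af/f, which is taken here as a floxed Arid1a allele from the series title; its protein belongs to SWI/SNF, a complex that moves nucleosomes. The labels do not say which promoter drives Cre or whether each line comes from its own mouse, so the p-values below measure the spread between lines. They name no batch.

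A cell that divides first loads the MCM helicase onto replication origins in G1 phase, then fires these origins in S phase with the help of CDC45 and the GINS complex, and copies DNA with polymerases held by the PCNA clamp. Genes for these steps are driven largely by E2F transcription factors. Genes for mitosis peak later and are controlled through the DREAM complex, B-MYB and FOXM1, which act at promoters with a CHR element and CCAAT boxes. In bulk RNA, fewer cells in cycle and less RNA per cycling cell cannot be told apart.

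The libraries held 15124888 to 20419830 recovered reads, and every one of the 50 genes passed the filter on low values. Values are normalized counts, that is reads divided by a size factor per library. Arid1a had 1785, 1253, 1510, 1258 and 1519 normalized counts across the KPCAf/f lines in the order given above, against 2267, 820, 3109, 2460 and 1915 in the KPC lines, and a gene-level count does not check a deleted exon. A1693 stood apart by its markers, with 10.8 normalized counts of Cdh1 and 2.70 of Pdx1, which mark epithelial and pancreatic cells; the other 9 lines had at least 3143 of Cdh1 and 594 of Pdx1. The summed level of 10 epithelial markers ranged between 6871 and 134546 in the KPCAf/f lines and between 171514 and 368861 in the KPC lines. Keratins made up most of this sum, and single markers went the other way: Epcam (6720) and Cldn7 (3170) were highest in the KPCAf/f line A1809, Pdx1 (1679) in A1925 and Sox9 (945) in A1693. For 9 fibroblast markers the sum ranged between 14627 and 88355 in the KPCAf/f lines and between 62.9 and 173 in the KPC lines, with 5 to 8 of the 9 markers above 10 normalized counts in KPCAf/f lines and 1 to 2 in KPC lines. The 8 leukocyte markers summed to 89.9 to 294 in KPCAf/f lines and 46.9 to 122 in KPC lines, most of it Cd68 and Csf1r, with Ptprc at most 11.3 and Adgre1 at most 0.88 in any line. The 5 endothelial markers summed to 8.10 to 668 in KPCAf/f lines and 7.22 to 438 in KPC lines. Reads from 4 Y-linked genes summed to 0 to 3 in the KPCAf/f lines and to 1148 to 3415 in the KPC lines, so Y-linked expression and the genotype cannot be told apart. The part of these markers in the differences described here was not tested. The KPC line A1620 stood apart by transcript length, with a slope of -0.65 log2 units for each doubling of length over all tested genes, against slopes of 0.10 to 0.15 in the KPCAf/f lines and -0.02 to 0.04 in the other 4 KPC lines. Counts over the 50 genes are also given without A1620 and A1693. Values without A1620 stand beside several genes that this line moves, though not beside all of them. None is given for Tyms, Fen1, Cdt1 and Chaf1b, among others, which were highest in A1620.

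The promoters show what the 2 gene groups share apart from their role. Promoter windows of 250 bases before to 50 bases after the start, from RefSeq on GRCm38.p6, were matched for 39 of the 50 genes; those of Mcm4, Gins1, Gins2, Pole, Ccne2, Ccna2, Cdc25c, Aurkb, Foxm1, Kif20a and Tpx2 were not used here. The E2F motif was searched as the letters TTCCCGC, as the variant TTGGCGC, as the further variant TTCGCGC and as the last variant TTGCCGC, on either strand. It was in 10 of 18 S-phase windows (55.6%) and in 3 of 21 G2/M windows (14.3%), beside 9.69% of all 27025 promoter windows. The CHR letters (TTTGAA or TTCGAA, either strand) were in 4 of 18 S-phase windows (22.2%) and 17 of 21 G2/M windows (81.0%), beside 19.4% of all windows. CCAAT, on either strand, was in 66.7% of the S-phase windows and 95.2% of the G2/M windows, beside 37.9% of all; its reverse complement ATTGG can share bases with TTGGCGC. CHR and CCAAT stood together in 17 of the 21 G2/M windows (81.0%) and in 3 of the 18 S-phase windows (16.7%), beside 7.7% of all. Over the other replication genes with a window the shares were 55.8% for E2F and 14.0% for CHR, and over the other mitosis genes 26.7% for E2F and 68.3% for CHR. A match is a run of letters, not a bound site.

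The 6 windows below belong to the genes with the smallest p between the genotypes among those with an E2F or CHR match. Each is printed 5′ to 3′ on the strand of the gene, with every match to the E2F, CHR or CCAAT letters in capitals, on either strand.
Rrm2, chr12:24708004-24708303, plus strand: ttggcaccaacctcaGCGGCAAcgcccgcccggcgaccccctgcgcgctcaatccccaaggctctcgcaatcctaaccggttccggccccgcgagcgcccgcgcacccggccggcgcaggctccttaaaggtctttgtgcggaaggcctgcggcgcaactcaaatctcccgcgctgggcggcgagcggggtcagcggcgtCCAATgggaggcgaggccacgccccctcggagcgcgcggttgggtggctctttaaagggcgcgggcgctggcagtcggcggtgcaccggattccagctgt
Prim1, chr10:128014965-128015264, plus strand: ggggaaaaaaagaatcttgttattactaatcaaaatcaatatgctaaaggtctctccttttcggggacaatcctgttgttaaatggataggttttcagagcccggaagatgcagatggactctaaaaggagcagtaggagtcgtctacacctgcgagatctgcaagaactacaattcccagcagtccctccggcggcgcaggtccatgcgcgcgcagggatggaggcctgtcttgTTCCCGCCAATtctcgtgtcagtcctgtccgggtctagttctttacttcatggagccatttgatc
Mcm3, chr1:20820263-20820562, minus strand: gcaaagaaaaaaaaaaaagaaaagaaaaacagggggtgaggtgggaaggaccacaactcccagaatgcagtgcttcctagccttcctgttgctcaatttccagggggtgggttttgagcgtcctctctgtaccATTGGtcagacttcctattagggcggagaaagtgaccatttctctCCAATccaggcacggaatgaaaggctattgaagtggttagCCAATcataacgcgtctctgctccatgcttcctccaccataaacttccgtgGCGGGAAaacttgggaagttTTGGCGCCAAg
Kif23, chr9:61946750-61947049, minus strand: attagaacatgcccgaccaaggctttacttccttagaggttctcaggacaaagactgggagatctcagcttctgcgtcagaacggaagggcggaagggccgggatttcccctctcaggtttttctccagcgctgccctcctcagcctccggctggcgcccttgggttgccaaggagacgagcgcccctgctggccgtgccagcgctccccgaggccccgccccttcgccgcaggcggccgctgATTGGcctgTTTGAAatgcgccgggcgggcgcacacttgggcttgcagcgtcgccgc
Cdk1, chr10:69352863-69353162, minus strand: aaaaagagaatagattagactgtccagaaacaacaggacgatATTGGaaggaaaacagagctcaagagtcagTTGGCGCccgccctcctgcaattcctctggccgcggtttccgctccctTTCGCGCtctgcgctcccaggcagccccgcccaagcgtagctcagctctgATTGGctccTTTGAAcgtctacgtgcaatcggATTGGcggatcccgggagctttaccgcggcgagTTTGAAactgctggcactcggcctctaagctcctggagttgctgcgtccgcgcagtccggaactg
Cdc25b, chr2:131186698-131186997, plus strand: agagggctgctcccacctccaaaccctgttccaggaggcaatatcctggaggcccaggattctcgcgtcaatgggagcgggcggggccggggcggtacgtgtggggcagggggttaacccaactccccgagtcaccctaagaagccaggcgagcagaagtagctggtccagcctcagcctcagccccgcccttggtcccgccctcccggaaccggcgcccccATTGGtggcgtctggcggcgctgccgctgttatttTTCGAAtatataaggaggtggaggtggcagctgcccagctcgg
Positions give the first base of a match as printed, counted from 1 at the start and negative before it. Rrm2 had an E2F match on the reverse strand at position -235 and a CCAAT at -50, and no CHR letters. In Prim1 the E2F letters at -15 run into a CCAAT at -9, and in Mcm3 an E2F match at 40 and its reverse complement at 43 overlap. Kif23 carried CCAAT (reverse strand) at -7 and CHR at 3, and Cdc25b carried CCAAT (reverse strand) at -28 and CHR at 8. Cdk1 held both kinds, with E2F letters at -178 and -130 and CHR letters at -71 and -15.

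Between the genotypes, none of the 50 genes passed an adjusted p of 0.05 in the limma test over 13089 genes, in which 1.75% of all tested genes were called (1.36% higher and 0.39% lower in KPCAf/f lines). edgeR's quasi-likelihood test (1.31% of genes called), DESeq2 (5.7% called) and limma-voom (0.802%) also called 0 of the 50. At an unadjusted p under 0.05, limma gave 5 genes, edgeR 5 (14.6% of all tested genes), limma-voom 5 (14.2%) and DESeq2 6 (17.1%). The 5 by limma were lower in KPCAf/f lines (Rrm2 and Prim1 among the S-phase members, Kif23, Ccna2 and Birc5 among the G2/M members). That is 5 of 50, where 14.6% of all tested genes had such a p, and 6.26% in the lower direction. The 5 became 2 without A1925 (11.9% of all tested genes), 3 without A2031 (12.7%) and 12 without A2032 (14%), and 8 with a correction for transcript length, where 15.9% of all tested genes had such a p. For none of the 50 genes did the ranges of the genotypes stand apart, against 4.53% of all tested genes.

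The fitted differences leaned to lower values in KPCAf/f lines while staying small. Fitted log2 fold changes (KPCAf/f over KPC) were below 0 for 40 of the 50 genes, where 50.8% of all tested genes were below 0. The median was -0.25 over the S-phase members (17 of 23 below 0) and -0.21 over the G2/M members (23 of 27 below 0), beside -0.01 over all tested genes. The genes were measured in the same 10 libraries, so these counts are not independent. Without A1620 and A1693, 45 of the 50 were below 0, 5 had an unadjusted p under 0.05 (14.2% of all tested genes) and none was called. With a correction for transcript length the G2/M median was -0.40. That correction used the longest annotated transcript of each gene, which need not be the one expressed. With quantile normalization 34 of the 50 genes stayed below 0. The 95% interval of the difference lay within 1 log2 unit of 0 for 37 of the 50 genes (74.0%), and for 19 of the 23 S-phase and 18 of the 27 G2/M members. The share was 40.2% over all tested genes, 74.5% over the other replication genes and 65.3% over the other mitosis genes. All tested genes include means down to 6.98 normalized counts, against at least 487 for the 50, so the 40.2% is not matched for level. An interval within 1 log2 unit of 0 bounds the difference and does not show equal levels.

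**Figure D1:**
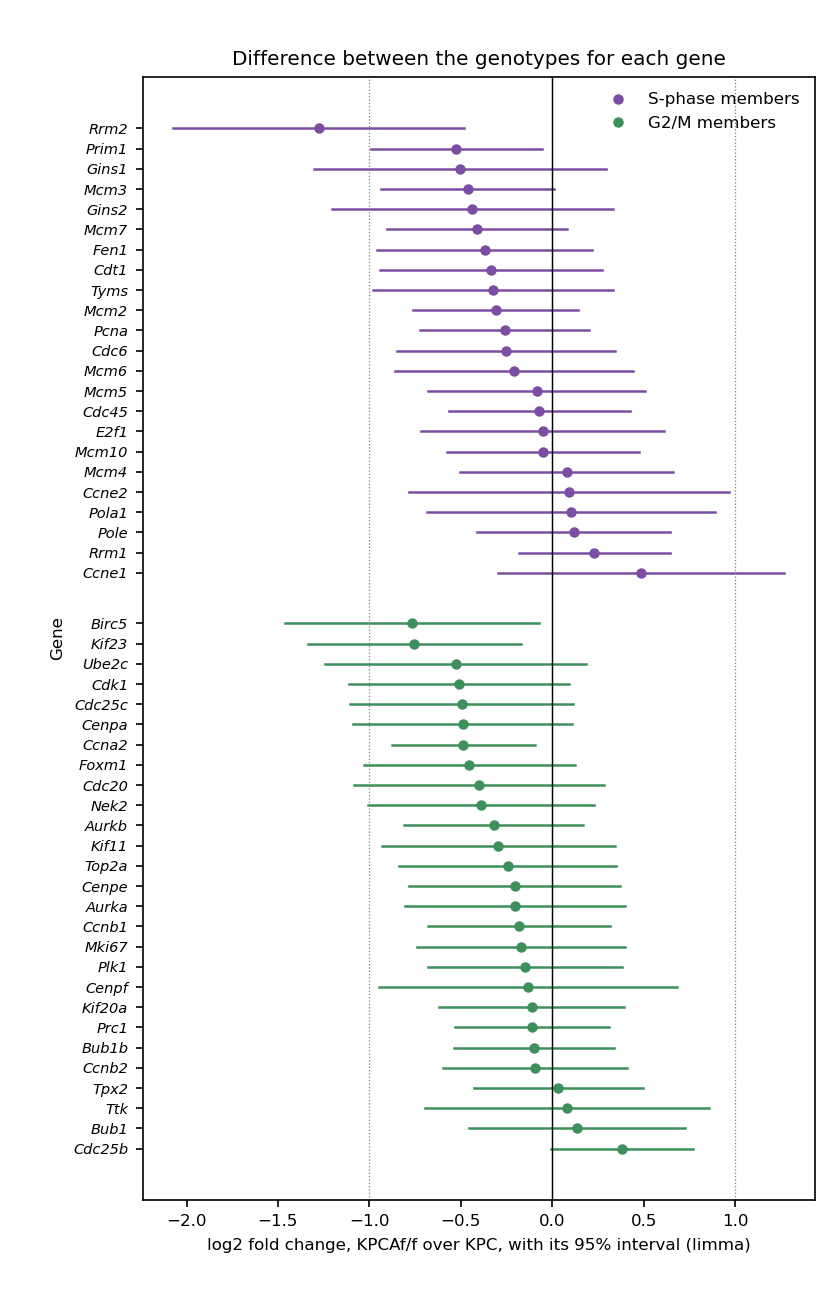
Log2 fold change (KPCAf/f over KPC, x axis) of each of the 50 genes (y axis) with its 95% interval from limma, S-phase members above and G2/M members below. Points lie left of 0 for 40 genes, the interval of Rrm2 reaches farthest left (-2.07), and dotted lines mark 1 log2 unit either side of 0.

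The widest difference of the 50 was in nucleotide supply. Rrm2 (chr12:24708241-24714146 in the GENCODE M21 annotation of GRCm38), whose protein is the regulated small subunit of ribonucleotide reductase, the enzyme that makes deoxynucleotides for DNA synthesis, had 2141, 3025, 3127, 9695 and 4109 normalized counts across the KPCAf/f lines, against 11742, 11136, 9861, 7527 and 6935 in the KPC lines. A2441 lay inside the KPC range, and the other 4 KPCAf/f lines stood below every KPC line. The means were 4419 ± 3030 in KPCAf/f lines and 9440 ± 2138 in KPC lines (SD, n = 5 each), a log2 fold change of -1.28 (SE 0.36, 95% interval -2.07 to -0.48). Its limma p adjusted over all tested genes was 0.126, and it ranked 486 of 13089 by p. Without A2441 the log2 fold change was -1.61 and the limma adjusted p 0.0113, where 1.25% of all tested genes were called (0.229% lower); this was the 1 case in which any of the 50 genes was called in any setting tried.

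Rrm1, the large subunit of the same enzyme, had a fitted value on the other side of 0. Its levels were 8169, 6434, 5356, 7464 and 6211 in the KPCAf/f lines, against 5493, 6654, 6186, 6222 and 4169 in the KPC lines, with a log2 fold change of 0.23 (SE 0.19; limma adjusted p = 0.585). The ratio of Rrm2 to Rrm1 counts was 0.262, 0.470, 0.584, 1.30 and 0.662 in the KPCAf/f lines, against 2.14, 1.67, 1.59, 1.21 and 1.66 in the KPC lines. Only A2441 among the KPCAf/f lines reached the KPC range of this ratio, which was looked up after the values were seen and carries no test. Tyms, which makes thymidylate, had a log2 fold change of -0.32 (SE 0.30).

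**Figure D2:**
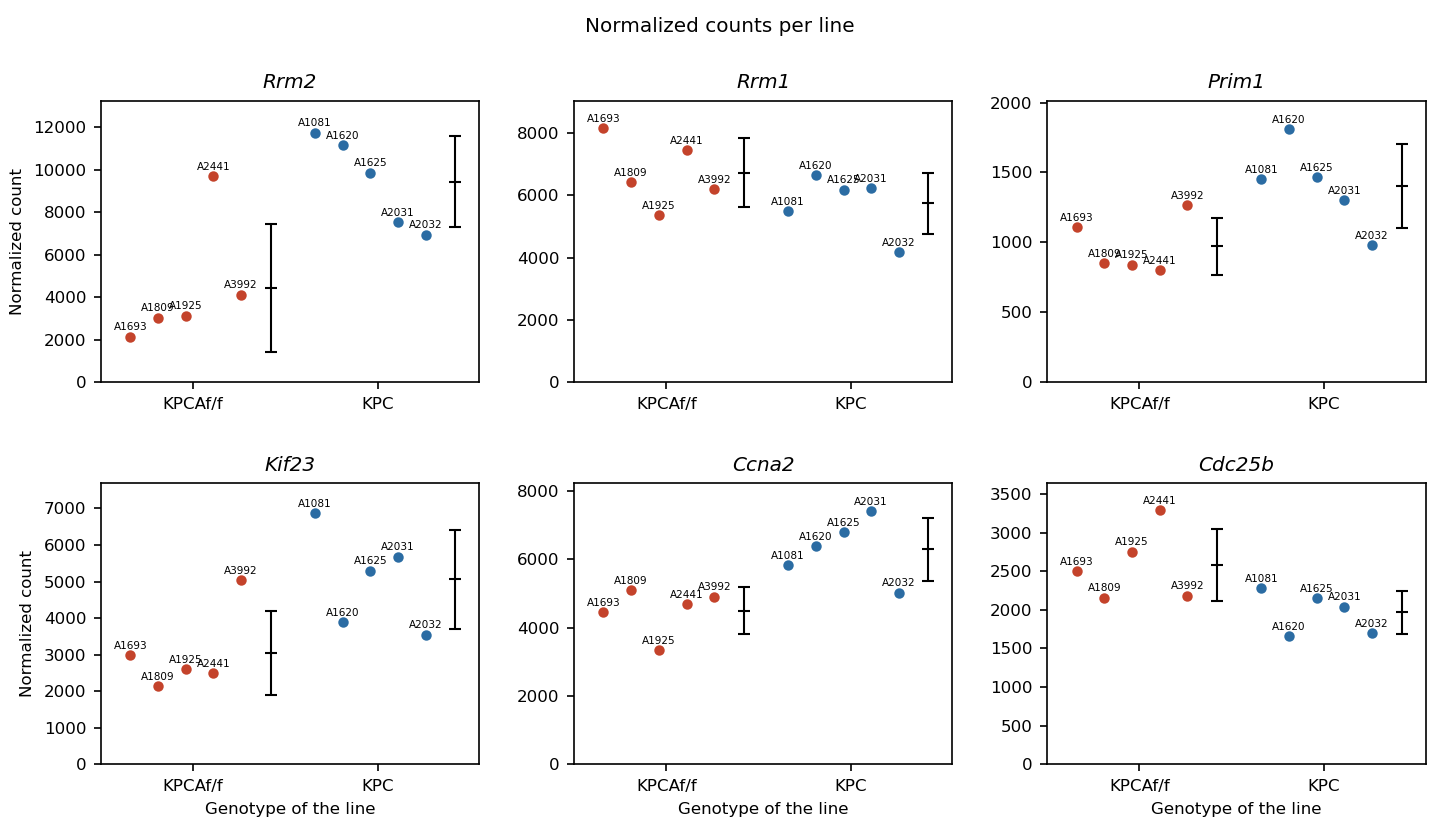
Normalized counts (y axis) of Rrm2, Rrm1, Prim1, Kif23, Ccna2 and Cdc25b in each KPCAf/f line (left) and KPC line (right); the bar beside each group is its mean ± SD over 5 lines. The Rrm2 panel shows A2441 at 9695 among KPC values while the other 4 KPCAf/f lines lie between 2141 and 4109.

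Of the origin-licensing genes, no MCM helicase subunit passed the test. Mcm3 had 5779, 4199, 4165, 5597 and 3198 normalized counts across the KPCAf/f lines, against 6211, 7002, 7127, 6676 and 4354 in the KPC lines. Its groups overlapped through A2032 alone, and the log2 fold change was -0.46 (SE 0.22; limma adjusted p = 0.353). Mcm7 had 5099, 4618, 4344, 5218 and 5389 in the KPCAf/f lines, against 4825, 10174, 7241, 7180 and 4721 in the KPC lines, with the high value in A1620. Its log2 fold change was -0.41 (SE 0.22) and was -0.25 without A1620; Mcm7 overlaps Ap4m1 and Cops6 on the other strand, and the strand setting of the counting is not given in the sources used here. Mcm2 had 3566, 3606, 2837, 5311 and 3415 in the KPCAf/f lines, against 4799, 4128, 4559, 6009 and 3574 in the KPC lines, a log2 fold change of -0.31 (SE 0.21). Mcm4, Mcm5 and Mcm6, the other subunits of the ring, had log2 fold changes of 0.08, -0.09 and -0.21. The loaders Cdc6 and Cdt1 stood at -0.25 and -0.34, and Mcm10, which acts as the helicase is switched on, at -0.05.

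Among the genes that complete the active helicase, the GINS subunits had a high value in A1620. Gins1 had 337, 466, 316, 431 and 567 normalized counts across the KPCAf/f lines, against 454, 1344, 625, 602 and 303 in the KPC lines. Gins2 had 726, 952, 534, 958 and 467 in the KPCAf/f lines, against 793, 2159, 842, 854 and 612 in the KPC lines. In both genes A1620 was the highest of the 10 lines. For Gins2 the other 4 KPC lines lay inside the KPCAf/f range. For Gins1 only A1081 of these did, with A1625 and A2031 above that range and A2032 below it. The log2 fold changes were -0.50 (SE 0.36; limma adjusted p = 0.537) for Gins1 and -0.44 (SE 0.35; limma adjusted p = 0.578) for Gins2, which overlaps Gse1 on the other strand. Without A1620 they were -0.21 for Gins1 and -0.14 for Gins2. Cdc45, the third part of the active helicase, had a log2 fold change of -0.07.

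At the fork itself, Prim1, the catalytic subunit of the primase that starts each new strand, had 1109, 849, 840, 799 and 1264 normalized counts across the KPCAf/f lines, against 1455, 1812, 1468, 1303 and 978 in the KPC lines. Of the KPC lines, 4 lay above all KPCAf/f lines and A2032 lay among them. The log2 fold change was -0.52 (SE 0.21; limma adjusted p = 0.289). Pcna, the sliding clamp, had 2710, 3357, 3027, 4027 and 2263 in the KPCAf/f lines, against 2938, 5010, 3763, 3787 and 2949 in the KPC lines, and its groups overlapped widely (log2 fold change -0.26, SE 0.21). Leaving out 1 line gave Pcna values between -0.36 and -0.14, among them -0.14 without A1620 and -0.16 without A3992. The polymerase subunit genes Pola1 and Pole were at 0.10 and 0.12, and Fen1, which trims Okazaki fragments, was at -0.37 (SE 0.27) with Tmem258 on the other strand.

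The genes that start S phase showed no common direction. E2f1, a transcription factor of the replication genes, had 926, 712, 695, 1322 and 811 normalized counts across the KPCAf/f lines, against 680, 1543, 809, 1220 and 569 in the KPC lines. Its log2 fold change of -0.05 (SE 0.30) changed sign without A1620 (0.14). Ccne2, a cyclin of the G1 to S transition, had 781, 272, 427, 495 and 485 in the KPCAf/f lines, against 487, 180, 462, 802 and 485 in the KPC lines, and its log2 fold change of 0.09 (SE 0.40) became -0.22 without A1620 and -0.41 without A1620 and A1693. A1620 had the lowest Ccne2 of all lines. Ccne1 had the highest fitted value of the S-phase members, 0.49 (SE 0.36), and its highest count, 1369, was in A1693.

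Of the genes that drive entry into mitosis, Ccna2, the A-type cyclin of S phase and G2, had 4453, 5094, 3334, 4697 and 4907 normalized counts across the KPCAf/f lines, against 5825, 6377, 6796, 7414 and 5028 in the KPC lines. The groups overlapped through A1809 and A2032 alone; the log2 fold change was -0.49 (SE 0.18; limma adjusted p = 0.234), and Exosc9 lies on the other strand. Ccnb1, the cyclin partner of CDK1 in mitosis, had 3137, 1406, 2166, 1956 and 2325 in the KPCAf/f lines, against 1978, 2750, 2925, 2589 and 1996 in the KPC lines, with both the highest and the lowest line in the KPCAf/f group (log2 fold change -0.18, SE 0.23). Cdk1, the mitotic kinase, had 4932, 3475, 2991, 2604 and 4354 in the KPCAf/f lines, against 4303, 9188, 5113, 4756 and 3538 in the KPC lines. A1620 was again the highest, and the log2 fold change was -0.51 (SE 0.27; limma adjusted p = 0.417), or -0.30 without A1620. Ccnb2 was at -0.09.

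The CDC25 phosphatases, which remove the inhibitory phosphates of CDK1, had fitted values on opposite sides of 0. Cdc25b had 2500, 2158, 2753, 3288 and 2184 normalized counts across the KPCAf/f lines, against 2284, 1661, 2149, 2042 and 1701 in the KPC lines. Only A1081 of the KPC lines reached the KPCAf/f range; the log2 fold change was 0.38 (SE 0.18; limma adjusted p = 0.347), and Spef1, on the other strand, averaged 163 normalized counts. Cdc25c had 697, 548, 502, 768 and 531 in the KPCAf/f lines, against 980, 1407, 952, 617 and 540 in the KPC lines, with a log2 fold change of -0.50 (SE 0.28; limma adjusted p = 0.430), or -0.31 without A1620. The ratio of Cdc25b to Cdc25c was 3.59, 3.94, 5.49, 4.28 and 4.11 in the KPCAf/f lines, against 2.33, 1.18, 2.26, 3.31 and 3.15 in the KPC lines. These ratios did not overlap. The pair was chosen after its values were seen, so the ratio carries no test. The share of other gene pairs whose ratios would also separate the genotypes was not computed. The ratio of Ccne1 to Ccne2, looked up in the same way, did overlap, at 0.796 to 3.10 in the KPCAf/f lines and 0.585 to 3.99 in the KPC lines.

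No mitotic kinase passed the threshold. Plk1 stood at -0.15 (SE 0.24), Aurka at -0.20 (SE 0.27), Aurkb at -0.32 (SE 0.22) and Nek2 at -0.39 (SE 0.28). The spindle checkpoint genes Bub1, Bub1b and Ttk, of which Bub1 and Ttk are kinases too and which hold back anaphase until chromosomes are attached, were at 0.14, -0.10 and 0.08. Cdc20, the activator of the anaphase-promoting complex that the checkpoint restrains, had 3952, 1765, 2223, 2409 and 2804 normalized counts across the KPCAf/f lines, against 3642, 6556, 3236, 2286 and 2382 in the KPC lines. Ube2c, the ubiquitin-conjugating enzyme of that complex, had 3305, 3548, 2348, 2592 and 2989 in the KPCAf/f lines, against 3609, 9007, 4318, 4506 and 2109 in the KPC lines. Both had their highest value in A1620, and their log2 fold changes were -0.40 (SE 0.31) for Cdc20, which overlaps Elovl1 on the other strand, and -0.53 (SE 0.33) for Ube2c. Without A1620 they were -0.16 for Cdc20 and -0.26 for Ube2c.

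Among kinetochore and chromosome genes, Cenpa, the centromeric histone, had 2158, 2044, 1686, 2355 and 1490 normalized counts across the KPCAf/f lines, against 2355, 5400, 2456, 2350 and 1935 in the KPC lines. Apart from A1620, the KPC lines lay between 1935 and 2456 and overlapped the KPCAf/f lines; the log2 fold change was -0.49 (SE 0.27; limma adjusted p = 0.430), or -0.24 without A1620. Birc5, or survivin, of the chromosomal passenger complex, had 2138, 1436, 1364, 2102 and 2456 in the KPCAf/f lines, against 2534, 5955, 2784 and 4081 in the KPC lines A1081, A1620, A1625 and A2031. A2032 lay between the KPCAf/f lines A1809 and A2441 and the other KPC lines above all KPCAf/f lines. The log2 fold change of Birc5 was -0.77 (SE 0.32, limma adjusted p = 0.293), or -0.54 without A1620. The kinetochore proteins Cenpe and Cenpf were at -0.21 and -0.13.

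Kif23, a kinesin of the central spindle needed for cytokinesis, had 2991, 2140, 2600, 2505 and 5034 normalized counts across the KPCAf/f lines, against 6872, 3897, 5302, 5685 and 3546 in the KPC lines. A3992 was the only KPCAf/f line inside the KPC range. The means were 3054 ± 1148 in KPCAf/f lines and 5060 ± 1358 in KPC lines (SD, n = 5 each), with a log2 fold change of -0.75 (SE 0.27, 95% interval -1.34 to -0.17; limma adjusted p = 0.220). Without A3992 that adjusted p was 0.0763. Its partners in spindle work had smaller fitted values, with Kif11 at -0.30, Kif20a at -0.11 (Cdc23 lies on the other strand), Prc1 at -0.11 and Tpx2 at 0.03.

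Genes often read as markers of proliferation overlapped between the genotypes. Mki67, which encodes the Ki-67 antigen, had 9123, 5395, 5843, 6611 and 5135 normalized counts across the KPCAf/f lines, against 7707, 5142, 9673, 9571 and 4772 in the KPC lines. Its log2 fold change of -0.17 (SE 0.26) was 0.02 under quantile normalization and -0.28 without A1620. Over all 21 alternative settings it ranged between -0.51 and 0.02. Top2a, the topoisomerase that untangles sister chromatids, had 13392, 8612, 9697, 11217 and 12373 in the KPCAf/f lines, against 12567, 9160, 17737, 20209 and 8785 in the KPC lines. The log2 fold change of Top2a was -0.24 (SE 0.27), with A1625 and A2031 above every other line. Leaving out 1 line gave -0.08 without A2031, -0.13 without A1625, -0.16 without A1809, -0.37 without A1620 and -0.38 without A2032. Over all 21 alternative settings the value for Top2a ranged between -0.44 and -0.005. Foxm1, a transcription factor of the G2/M genes, had 2700, 3275, 2166, 4048 and 2494 in the KPCAf/f lines, against 5628, 2755, 3947, 5426 and 2800 in the KPC lines (log2 fold change -0.45, SE 0.26; limma adjusted p = 0.447). Per kilobase of longest transcript, the mean level over the 10 lines was highest for Rrm2 (3160 normalized counts per kb), Top2a (2370) and Pcna (2229) and lowest for Ccne2 (162), Cenpf (182) and Cdc6 (213).

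Levels of both groups of genes differed between lines within each genotype. A line level was taken as the mean, over the genes of a group, of each gene's log2 deviation from its own mean over the 10 lines; with 1 library per line the order of neighbouring lines has no error of its own. Over the S-phase members it was 0.11, -0.21, -0.39, 0.21 and -0.24 in the KPCAf/f lines, against 0.04, 0.33, 0.22, 0.32 and -0.38 in the KPC lines. Over the G2/M members it was 0.17, -0.26, -0.35, -0.06 and -0.15 in the KPCAf/f lines, against 0.25, 0.16, 0.36, 0.27 and -0.40 in the KPC lines. A1925, A2032, A1809 and A3992 were the 4 lowest lines in both groups of genes, and the lowest pair held 1 line of each genotype. From the lowest to the highest line the S-phase level spanned 0.73 (1.66-fold) and the G2/M level 0.75 (1.69-fold). The genotype means were -0.11 ± 0.25 in KPCAf/f lines and 0.11 ± 0.30 in KPC lines for the S-phase members, and -0.13 ± 0.20 in KPCAf/f lines and 0.13 ± 0.30 in KPC lines for the G2/M members (SD, n = 5 each).

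**Figure D3:**
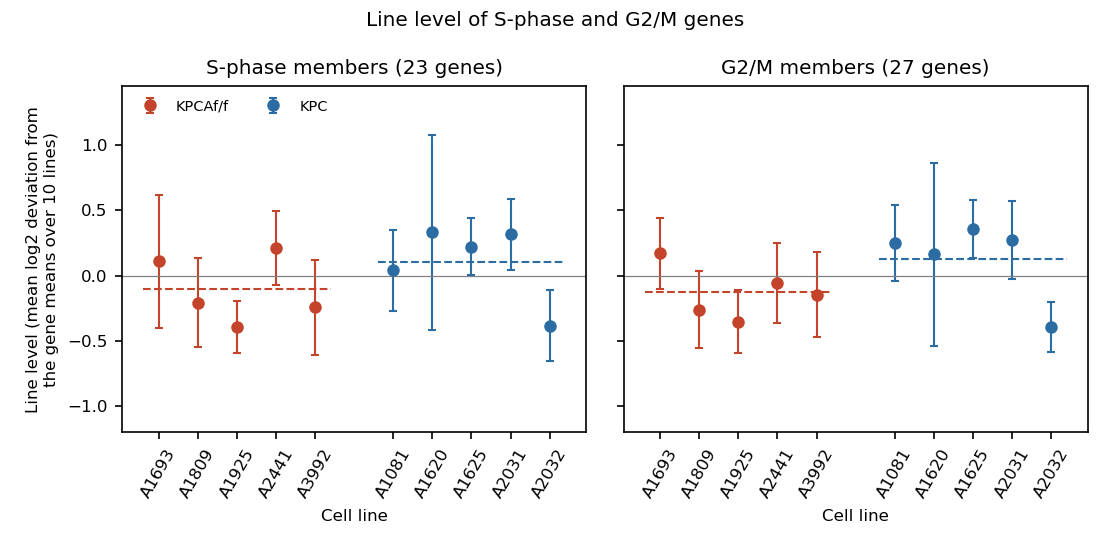
Line level (mean log2 deviation from each gene's mean over the 10 lines) of the S-phase and G2/M members in each line, with KPCAf/f lines left of KPC lines. Error bars are the SD over the genes of the group in that line and dashed lines are genotype means; A1925 and A2032 sit at the low end of both, between -0.35 and -0.40, whereas A1625 and A2031 sit between 0.22 and 0.36.

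A1925 and A2032 were low across nearly all members, whereas the low lines A1809 and A3992 were more mixed. In A1925, 0 of 23 S-phase and 2 of 27 G2/M members were above their own mean, and in A2032 2 of 23 and 0 of 27. A1809 had 7 of 23 S-phase and 5 of 27 G2/M members above their own mean. A3992 had 8 of 23 and 8 of 27 above it. In A1625 20 of 23 and 26 of 27 were above it, and in A2031 21 of 23 and 22 of 27. Together the 50 genes took 0.923%, 0.744%, 0.663%, 0.914% and 0.744% of the reads in the KPCAf/f lines, against 0.936%, 0.829%, 1.03%, 1.02% and 0.622% in the KPC lines. The S-phase level stood above the G2/M level by 0.27 in A2441, the widest gap of the 10 lines, and below it by 0.21 in A1081 (S-phase minus G2/M level -0.21). The SD over the 10 lines of log2 levels had a median of 0.43 over the 50 genes, beside 0.51 over all tested genes with a mean of at least 100 normalized counts.

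**Figure D4:**
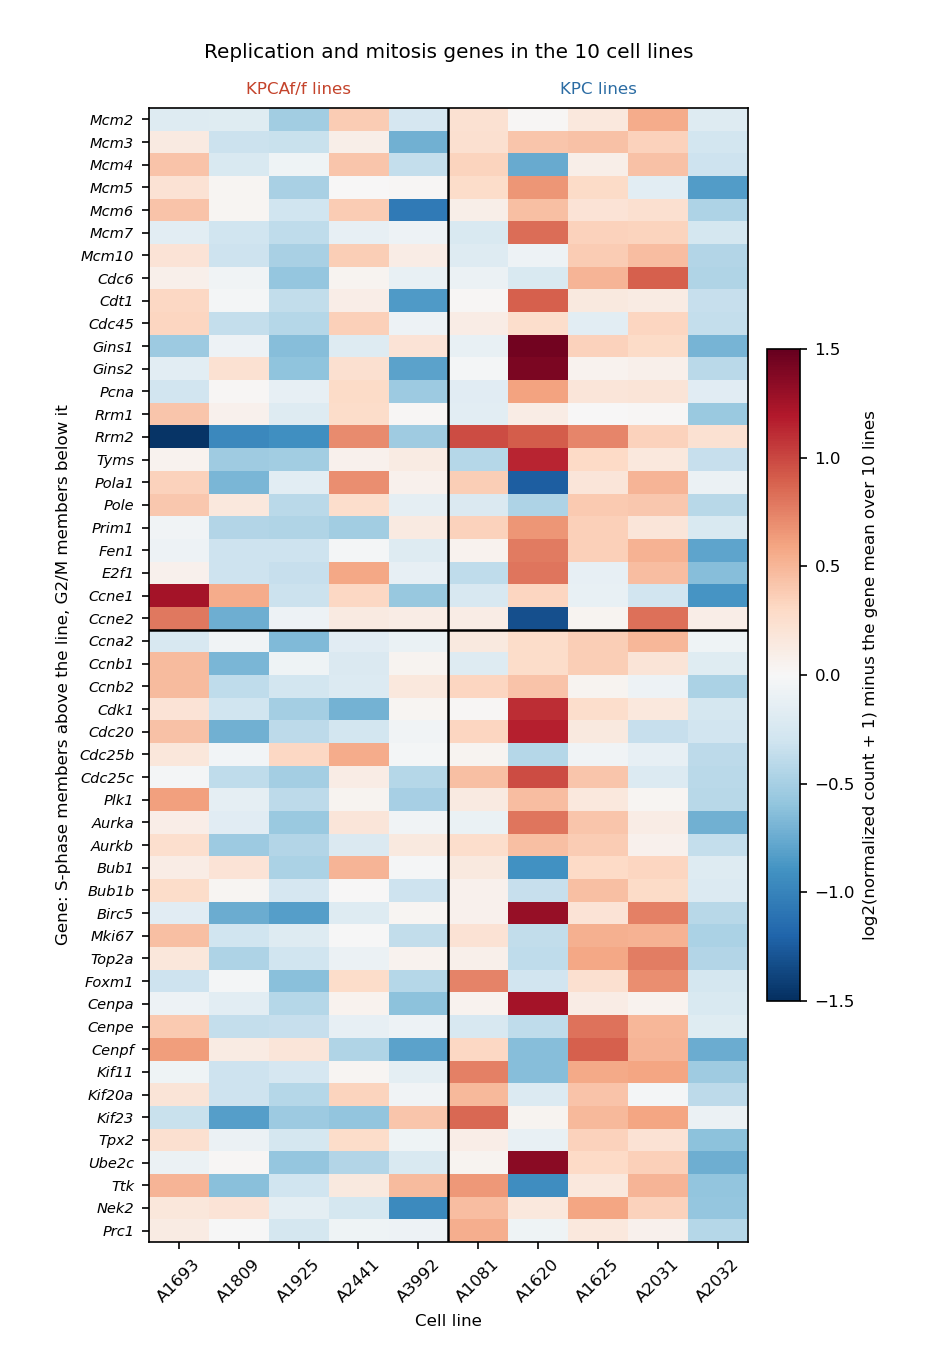
Log2 deviation of each of the 50 genes (rows, S-phase members above G2/M members) from its own mean over the 10 lines (columns, KPCAf/f lines left, KPC lines right), coloured up to 1.5 log2 units either side of 0. The columns of A1925 and A2032 are low in nearly every row, and the column of A1620 mixes strong high and strong low rows.

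Other lines were mixed, such as A1081 with 12 of 23 S-phase members above their own mean and A2441 with 12 of 27 G2/M members. A1620 had the widest spread, with an SD over members of 0.75 (S-phase) and 0.70 (G2/M). It was the highest line for 19 and the lowest for 10 of the 50 genes. Its deviations leaned with transcript length: all 13 members with a longest transcript under 2500 bases were above their own mean in A1620 (mean deviation 0.71), while 1 of the 7 members of at least 5000 bases was (mean deviation -0.48). The 30 members between these lengths were mixed in A1620, with 17 above their mean and a span of -1.32 in Ccne2 to 1.41 in Gins2. Gins1, Ube2c and Cdc20 are among the short ones, and Pola1, Mki67 and Cenpf among the long ones. Over the 50 genes its slope was -0.55 per doubling of length, against slopes of -0.07 to 0.13 in the KPCAf/f lines and 0.01 to 0.18 in the other KPC lines. After correction for length its G2/M level was 0.31 in place of 0.16, while that of A2032 was -0.42 and that of A1925 -0.37. The SD over members in A1620 was still 0.66 (S-phase) and 0.63 (G2/M) after it. The part of length in the differences between genotypes beyond this correction was not tested.

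**Figure D5:**
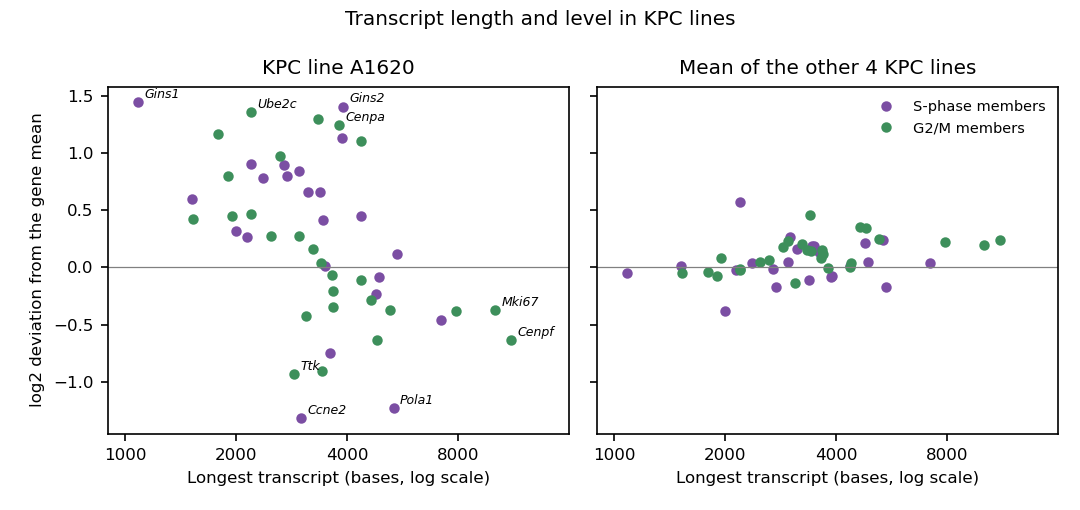
Log2 deviation of each of the 50 genes from its own mean (y axis) against the length of its longest transcript (x axis, log scale) in KPC line A1620 (left) and as the mean of the other 4 KPC lines (right). In A1620 the 13 genes under 2500 bases all lie above 0 and 6 of the 7 genes of at least 5000 bases lie below it, and the other KPC lines show no such slope.

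None of 51 other replication genes was called by limma (median log2 fold change -0.13), edgeR, DESeq2 or limma-voom, and by limma 5 had an unadjusted p under 0.05, 1 higher and 4 lower in KPCAf/f lines, beside 14.6% of all tested genes (8.39% higher and 6.26% lower). Mcm8, a helicase of DNA repair, was 330, 502, 265, 380 and 453 normalized counts across the KPCAf/f lines, against 208, 256, 294, 216 and 176 in the KPC lines (log2 fold change 0.73, SE 0.26; limma adjusted p = 0.219). Recql4, a RecQ helicase, had a log2 fold change of -0.66 (SE 0.26). Chaf1b, a subunit of the histone chaperone of new DNA, had 1119, 950, 916, 989 and 337 in the KPCAf/f lines, against 1294, 2855, 1443, 1319 and 927 in the KPC lines, a log2 fold change of -0.86 (SE 0.37) that was -0.55 without A3992. A2032 and A1925 were the lowest lines here too, at -0.30 and -0.29.

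None of 72 other mitosis genes was called by limma (median -0.09), edgeR, DESeq2 or limma-voom, and by limma 9 had an unadjusted p under 0.05, 2 higher and 7 lower in KPCAf/f lines, beside the same shares of all tested genes. Incenp, the scaffold of the chromosomal passenger complex to which Birc5 also belongs, had 2812, 2718, 2570, 2908 and 2476 normalized counts across the KPCAf/f lines, against 4541, 4134, 4672, 4444 and 2448 in the KPC lines. Of the KPC lines, 4 stood above the KPCAf/f range and A2032 below it. The log2 fold change was -0.55 (SE 0.20; limma adjusted p = 0.227). Without A2032 it was -0.72 with a limma adjusted p of 0.0472, where 1.29% of all tested genes were called (0.191% lower). Cenpm, a centromere protein, had a log2 fold change of -0.89 (SE 0.32), or -0.65 without A1620. Kif15, a spindle kinesin, had 0.93 (SE 0.34, and 0.52 without A1620 and A1693), with 1694 and 1617 normalized counts in A1693 and A3992.

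The brakes of the cell cycle were the list with a median above 0. None of 15 inhibitor and checkpoint genes was called by limma (median log2 fold change 0.28). By limma 2 of the 15 had an unadjusted p under 0.05, both higher in KPCAf/f lines. Of all tested genes 14.6% had such a p in either direction and 8.39% in the higher direction. Gas1, a membrane protein that holds cells out of S phase, had 4090, 13.9, 1935, 633 and 237 normalized counts across the KPCAf/f lines, against 24.6, 10.6, 58.7, 53.6 and 33.0 in the KPC lines. Of the KPCAf/f lines, 4 stood above every KPC line and A1809 did not; the log2 fold change was 3.81 (SE 1.27; limma adjusted p = 0.195). DESeq2, which called 5.7% of all genes it tested, called Gas1 (log2 fold change 5.26, adjusted p = 1.349e-06), and so did limma without A1809 (5.04, adjusted p = 0.00944; 2.43% of all tested genes called, 1.73% higher). Btg2, an antiproliferative gene, had a log2 fold change of 1.09 (SE 0.49), and Cdkn1c, the CDK inhibitor p57, had 1.68 (SE 0.77; limma adjusted p = 0.348).

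Over the 15 brakes the line level was 0.53, 0.04, 0.24, 0.28 and 0.09 in the KPCAf/f lines, against -0.09, -0.51, -0.10, -0.21 and -0.27 in the KPC lines, and these ranges did not overlap. The share of other lists of 15 genes that would also separate was not computed. Of the 15 genes, 9, 9, 6, 7 and 9 were above their own mean in the KPCAf/f lines, against 7, 4, 8, 5 and 6 in the KPC lines. Without Gas1, a setting chosen after its values were seen, the level of the other 14 was 0.20, 0.26, -0.03, 0.13 and 0.03 in the KPCAf/f lines, against 0.07, -0.30, -0.04, -0.14 and -0.16 in the KPC lines, and they overlapped. Epithelial and fibroblast marker sums also separate the genotypes in the same lines, and their part in these differences was not tested.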

How the data were processed

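RNA was measured in 10 cell lines, 1 library each, with genotypes taken from the labels. Libraries were stranded (Illumina TruSeq), per the labels' protocols. The submitters' processing notes name bcl2fastq 1.8.4, Trimmomatic 0.36, STAR 2.5.2b, Subread 1.5.0p3 (featureCounts), R 3.3.2 with DESeq2 1.14.1, and builds GRCm38.p5 and mm9 without a role; no annotation or strand setting for the counting is stated.

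The deposited values are a signal per gene, the authors' counts divided by DESeq2 size factors. Dividing by what 1 read is worth gave whole reads for 100.0% of values within 0.001 read. Every pair of libraries differed beyond sampling noise (chi-square divided by its degrees of freedom at least 60.6).

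Genotypes were compared two-sided on log2(normalized count + 1) with limma 3.58.1 (trended variance, R 4.3.3) over the 13089 genes with at least 10 normalized counts in at least 5 lines, with Benjamini-Hochberg adjustment over all of them; fold changes on this scale are slightly understated for low genes. Alternatives were other pseudocounts, filters and scalings, a loess correction for transcript length, count tests on the recovered reads (limma-voom, edgeR 4.0.16, DESeq2 1.42.0), each line left out in turn, and A1620 and A1693 left out together. Scripts were tested on simulated data. Coordinates and transcript lengths come from GENCODE M21. The length of a gene is that of its longest annotated transcript, and which transcript the lines express was not examined.

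The 50 genes and the other lists were chosen with earlier results of these data known. Genes named by a rule were the 6 S-phase and 6 G2/M members of smallest p, the 4 of each with the widest range over the lines, and Pcna, Mcm2, E2f1, Foxm1, Mki67, Top2a, Ccnb1 and Cdk1, plus the 3 genes of smallest p in each other list, not all of them printed for every line; Rrm1 was added after its values were seen.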

Additional observations from a re-analysis of the deposited data

Results flagged for a closer look

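In groups of 5 lines, a line was marked when its gap to the nearest other line exceeded 0.71 of the range of its group. This marked 8 of 122 groups, where a rate of 1 in 20 would mark 6.1. That rate holds for independent, normally distributed values, and these groups share the same 10 libraries, so it is only a rough guide. In the KPC group A1620 was far above the rest for Gins2 (2159 normalized counts), Cdk1 (9188), Cenpa (5400) and Chaf1b (2855), and A2032 was far below the rest for Incenp (2448) and for the line level of the G2/M members (-0.397). In the KPCAf/f group A2441 was far above the rest for Rrm2 (9695) and A3992 far below the rest for Chaf1b (337).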

How the results depend on the processing

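The log2 fold changes of 29 of the 32 named genes kept their sign in every alternative run for them, 21 for each gene but Cdkn1c, which the filter on a mean of at least 100 removed and which had 20. Of the others, E2f1 (-0.05) ranged between -0.22 and 0.14 when 1 line was left out and was 0.12 without A1620 and A1693. Ccne2 (0.09) ranged between -0.22 and 0.31 when 1 line was left out and was -0.41 without A1620 and A1693. Mki67 (-0.17) was 0.018 with quantile normalization and reached -0.51 at the other end of its alternatives. When 1 line was left out, the number of called genes ranged between 0 and 1 for the 50 members and for the S-phase members, where the called gene was Rrm2 without A2441, for the other mitosis genes, where it was Incenp without A2032, and for the brakes, where it was Gas1 without A1809. DESeq2 also called 1 brake, Gas1. Leaving out 1 line gave S-phase medians of -0.35 to -0.14 and G2/M medians of -0.38 to -0.13. Over all genes limma called 229, DESeq2 731, limma-voom 105 and limma with a mean of at least 100 called 131. Line levels were not computed for edgeR, DESeq2 and limma-voom, which give no log2 value per line. The cause of these changes was not tested. Each of the 50 genes had a mean over the 10 lines of at least 487 normalized counts, so the spread between lines limits these comparisons more than counting error does. No paired analysis was possible because the labels give lines names and no replicate numbers shared between the genotypes.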
